A study of Mus musculus with 12 samples.

Results

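Integrins and the proteins of the focal adhesion, the structure that joins them to the actin cytoskeleton, were followed through 4 groups of cells sorted from mouse kidney cortex. The genes were taken by symbol: every integrin alpha and beta subunit of the deposited table, the talins and kindlins, integrin-linked kinase (ILK) with the PINCH and parvin proteins, focal adhesion kinase and its relatives, and a set of actin linkers and LIM proteins. This gave 49 of the 23378 genes in the table, of which 45 passed the filter on low counts. The remaining 4 (Itga11, Itgae, Parvg and Tns4) stayed at or below 1.22 CPM (counts per mega-count of the scaled library total) in every library, and Parvg had 0 counts in all MD libraries.

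All mice were C57BL/6 animals carrying nNos CreERT2 and the mTmG reporter, so macula densa (MD) cells, which express neuronal nitric oxide synthase, turned green while other kidney cells stayed red. MD cells were the sorted green cells, and control cells were the most intensely red cells, collected to stand for distal tubule and collecting duct epithelium. The groups were MD cells on control diet (2 libraries), MD cells on low salt diet TD 90228 with the ACE inhibitor enalapril at 150 mg/L in drinking water for 14 days (2 libraries), and control cells from the same 2 treatments (4 libraries each). The low salt diet with enalapril stimulates the MD and renin release and is written LS+ACEi below. Age and sex were not given in the sources used here. The labels do not say that each library came from its own animal, so p-values measure the spread between these libraries.

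Integrins are pairs of 1 alpha and 1 beta subunit that span the cell membrane and bind laminins, collagens, fibronectin or vitronectin outside the cell. Talins and kindlins bind the tail of the beta subunit and switch the receptor on, and ILK, PINCH, parvins, paxillin, tensins and vinculin then couple it to actin and to kinases. In kidney tubules these receptors hold the epithelium on its basement membrane, and members of the αv family can also release active TGF-β from its latent complex. The MD is an epithelial plaque where the thick ascending limb meets its parent glomerulus, and it rests against the extraglomerular mesangium.

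The libraries held 4259020 to 14856542 counts, of which the ribosomal RNA gene Gm42418 took 53.5% to 65.0%. A count of 3 corresponded to 0.230 to 0.732 CPM. As a check of the labels, all 6 MD markers were higher in MD cells, where they summed to 2246 to 3272 CPM against 83.8 to 442 CPM in control cells. Control cells also held RNA of other cell types. Markers of podocytes (10 genes) summed to 816 to 1630 CPM and those of endothelium (12 genes) to 1057 to 1890 CPM in 5 control-cell libraries. The other 3, which were replicate 4 on control diet and replicates 1 and 3 on LS+ACEi, held 62.2 to 242 CPM and 63.3 to 434 CPM. MD libraries held 31.9 to 197 CPM and 14.4 to 213 CPM of the same 2 lists. These 2 kinds of control-cell library are called marker-rich and marker-poor below, a division made after the data were seen. For the genes taken by symbol, fits against either kind alone are given where they bear on a call. Marker-poor libraries were also low in leukocyte markers, at 3.77 to 8.21 CPM against 30.1 to 99.3 CPM in marker-rich ones. Erythroid markers summed to 0 to 3.71 CPM and 9.14 to 94.5 CPM in the same order. Markers of smooth muscle and renin cells (7 genes) summed to 155 to 321 CPM in marker-poor libraries. In marker-rich ones they summed to 259 to 650 CPM, and in MD cells to 27.3 to 56.8 CPM. Those of collecting duct principal cells (8 genes), part of the intended control population, were at 104 to 899 CPM, 133 to 462 CPM and 11.3 to 41.5 CPM. Thick ascending limb markers (10 genes) were at 933 to 1923 CPM, 384 to 1259 CPM and 3177 to 4783 CPM in the same order. The 6 MD markers summed to 227 to 442 CPM in marker-poor and 83.8 to 246 CPM in marker-rich libraries. The part of these cell types in the results was not tested. In sorted pools a smaller number of cells of a type cannot be told apart from less RNA per cell.

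The first question was which parts of the adhesion machinery set MD cells apart. Averaged over both diets, 27 of the 45 tested genes passed an edgeR quasi-likelihood adjusted p of 0.05, which is 60% of them against a background of 21.4% of all 14180 genes. Of these, 4 were higher in MD cells (Itga4, Itga1, Itgav and Tln2) where the background for higher was 7.53%, and 23 were lower where the background for lower was 13.9%. The median log2 fold change was -1.26 for the tested members and -0.06 for all genes. All 4 MD libraries lay outside the range of all 8 control-cell libraries for 17 members, or 4 higher and 13 lower, against a background of 9.58%. Within single diets the calls were fewer: 9 members on control diet (background 6.57%, with 1 higher against 2.69% and 8 lower against 3.87%) and 6 on LS+ACEi (background 7.28%, with 1 higher against 3.15% and 5 lower against 4.13%). Itga3, Itgb4, Lims2 and Tns2 passed on both diets, each lower in MD cells. The sign of the fold change was the same on both diets for 43 of 45 members. The control-diet count rested on both MD libraries, since it was 0 without MD replicate 2 and 2 without MD replicate 1. On LS+ACEi it was 1 without MD replicate 1 and 2 without MD replicate 2, and without control-cell replicate 4 on control diet the 2 counts were 23 and 13.

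Against the marker-poor control-cell libraries alone, 8 of 39 tested members passed in the averaged comparison, where the background was 7.36% of genes. They were Itga4 and Itga1, higher in MD cells, and Itga3, Itga9, Itgb4, Lims2, Pgm5 and Tns2, lower in MD cells. Of these, only Itga9 overlapped, with 0 to 2.97 CPM in MD and 1.47 to 4.76 CPM in marker-poor libraries. Against the marker-rich libraries alone, 37 of 45 passed, where the background was 31.7%. All 8 passed in both, and the 27 calls made with all libraries were among the 37. The 10 others that passed against marker-rich libraries were Itgal, Itgax, Itgb5, Itgb6, Itgb8, Ilk, Parva, Vcl, Tgfb1i1 and Fermt3. On single diets 29 members (22.7% of genes) and 22 (17.4% of genes) passed against marker-rich libraries, on control diet and LS+ACEi, and 3 (3.11% of genes) and 8 (6.78% of genes) against marker-poor ones. The marker-poor libraries still held more smooth muscle, renin-cell and principal-cell markers than MD cells, as given above. Intercalated-cell markers summed to 94.8 to 424 CPM in them and 45.7 to 70.9 CPM in MD cells. Those of fibroblasts and mesangium were at 28.3 to 81.2 CPM and 4.09 to 29.9 CPM. Proximal tubule markers reached higher in MD cells, at 48.8 to 94.7 CPM in marker-poor and 59.5 to 272 CPM in MD libraries. The part of all these cell types in the calls was not tested. In the marker-poor fit 1 control-diet library stood alone for its group and was taken to vary like the other groups.

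**Figure D1:**
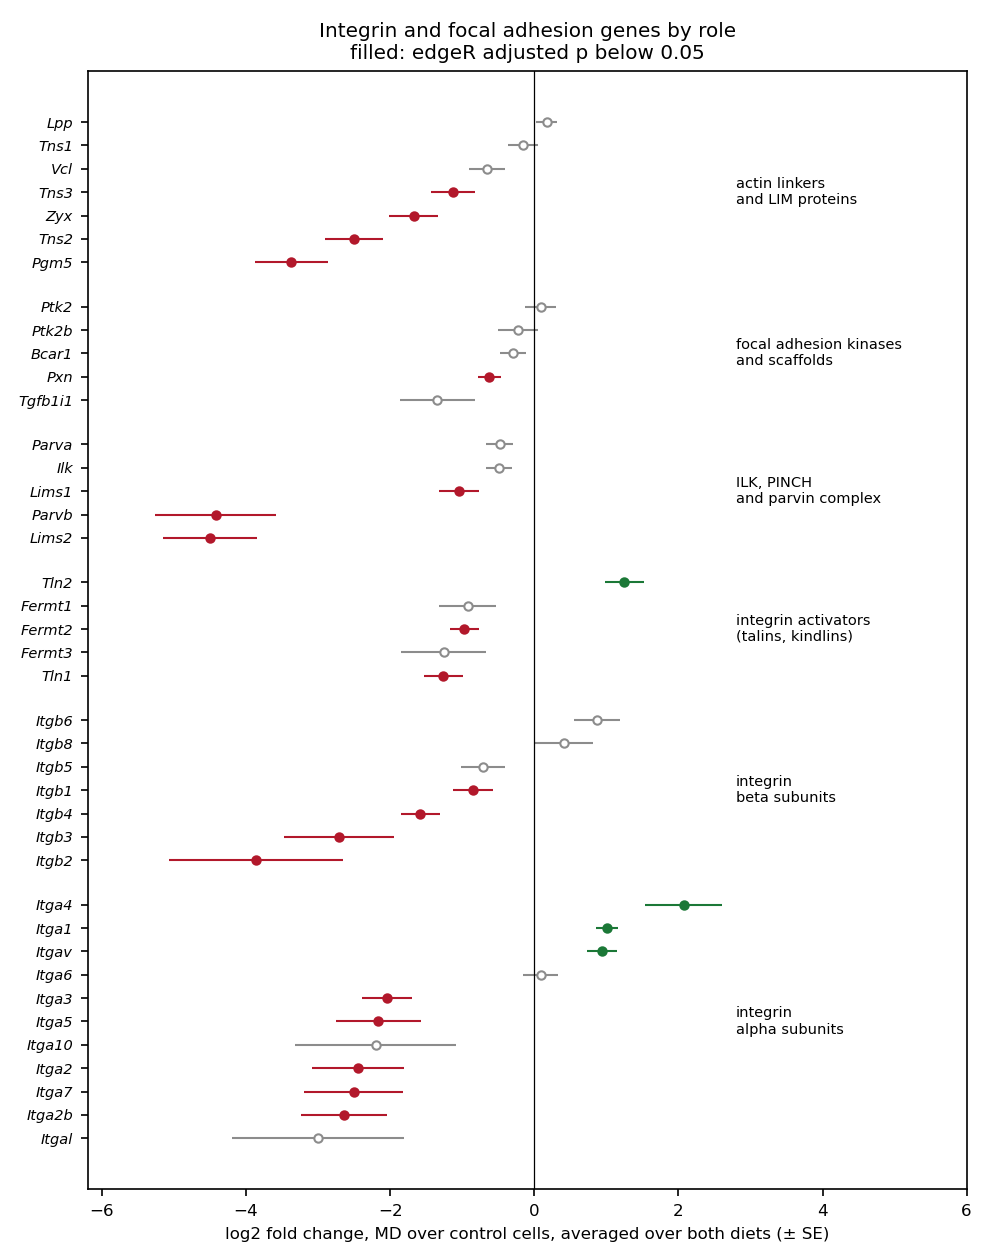
Log2 fold change (x axis) of MD cells over control cells, averaged over both diets, for 40 tested members in 6 role groups, with bars of 1 standard error; filled points passed an edgeR adjusted p of 0.05. Most filled points lie left of 0, while Itga4, Itga1, Itgav and Tln2 lie to the right. The 5 members with no counts in 1 of the groups (Itga8, Itga9, Itgam, Itgax, Itgb7) are left out because their fitted values depend on the prior count.

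Among the alpha subunits, 3 rose (background 7.53%) and 8 fell (background 13.9%) of 15 tested. Itga4, on chromosome 2 (79255426 to 79333123), encodes the α4 subunit that binds fibronectin and the cell adhesion molecule VCAM1. Its level was 68.6 and 72.5 CPM in MD cells on control diet and 33.5 and 36.5 CPM on LS+ACEi. Control cells held 19.6, 23.8, 10.4 and 2.27 CPM on control diet and 2.84, 19.5, 3.98 and 14.2 CPM on LS+ACEi. Every MD library was above every control-cell library, and the lowest control-cell values were those of the 3 marker-poor libraries. The averaged log2 fold change was 2.07 (SE 0.53, edgeR adjusted p = 0.0165). It was 4.17 (SE 0.27, edgeR adjusted p = 3.31e-07) against the marker-poor libraries and 1.54 (SE 0.22, edgeR adjusted p = 0.000288) against the marker-rich ones. The exons of Itga4 overlap those of Cerkl on the opposite strand, whose 141 counts over all libraries are few beside those of Itga4, but reads in the overlap cannot be assigned.

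Itga1 encodes the α1 subunit, which pairs with β1 as a collagen receptor. Its level was 59.0 and 57.7 CPM in MD cells on control diet, and 95.6 and 76.8 CPM on LS+ACEi. In control cells it was 33.4, 40.5, 37.1 and 48.5 CPM on control diet and 38.6, 32.2, 25.8 and 28.7 CPM on LS+ACEi. The populations did not overlap, and marker-rich and marker-poor control cells covered nearly the same range. Itga1 rose by 1.0 on the log2 scale (SE 0.15, edgeR adjusted p = 0.00104), with 1.10 against marker-rich and 0.83 against marker-poor libraries. On LS+ACEi alone it was 1.46 (SE 0.22, edgeR adjusted p = 0.00273), a call kept when any single library was left out, and on control diet it did not pass at 0.55 (edgeR adjusted p = 0.146).

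Itgav encodes αv, the partner of several beta subunits in receptors for vitronectin and latent TGF-β. MD cells held 90.8 and 93.4 CPM on control diet and 127 and 134 CPM on LS+ACEi. Control cells held 44.7, 40.1, 41.7 and 75.2 CPM and, on LS+ACEi, 77.1, 50.8, 81.6 and 48.8 CPM. The populations did not overlap, but the marker-poor libraries (75.2 to 81.6 CPM) were closer to MD cells than the marker-rich ones (40.1 to 50.8 CPM). Over both diets Itgav rose by 0.94 on the log2 scale (SE 0.20, edgeR adjusted p = 0.00756). It was 1.28 against marker-rich libraries and, against marker-poor libraries, 0.50 (edgeR adjusted p = 0.140), where the call was lost.

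Among the alpha subunits that fell, laminin-binding Itga3 had the smallest adjusted p. It encodes a basement membrane receptor of tubule cells and podocytes. MD cells held 15.6 and 6.18 CPM on control diet and 14.2 and 12.1 CPM on LS+ACEi. Control cells held 71.2, 64.0, 56.9 and 21.9 CPM on control diet and 33.9, 53.9, 38.2 and 56.2 CPM on LS+ACEi. No MD library reached the lowest control-cell library, which was marker-poor. Itga3 gave an averaged log2 fold change of -2.05 (SE 0.35, edgeR adjusted p = 0.00210), with -2.30 against marker-rich and -1.24 against marker-poor libraries. Another laminin-binding subunit, Itga6, stayed at 49.5 to 54.9 CPM in the 4 MD libraries and 24.7 to 78.2 CPM in control cells, a log2 difference of 0.09 (SE 0.25, edgeR adjusted p = 0.840).

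Itga9, a receptor subunit for tenascin-C and osteopontin, had 47 counts in the 2 MD libraries on control diet (2.97 and 1.46 CPM) and 0 counts in both on LS+ACEi. Control cells held 22.9, 21.4, 14.4 and 2.17 CPM on control diet and 4.76, 16.1, 1.47 and 19.3 CPM on LS+ACEi. On LS+ACEi MD cells were thus at least 38.7-fold lower than the pooled control-cell libraries, with the floor set at 3 counts over the group. This bound leaves out the spread of those control-cell libraries, 1.47 to 19.3 CPM. The difference passed (edgeR adjusted p = 0.0395). That call was lost on leaving out either MD replicate on LS+ACEi, control-cell replicate 2 or 4 on LS+ACEi or control-cell replicate 3 on control diet (edgeR adjusted p = 0.0589 to 0.191), and with limma voom (adjusted p = 0.477). Against marker-poor libraries the averaged log2 fold change of Itga9 was -3.90, a fitted value that depends on the prior count. On control diet its MD values lay on either side of the 1 marker-poor library (2.17 CPM). Itga8, the nephronectin receptor of renal mesenchyme and mesangium, had 62 counts on control diet and 0 on LS+ACEi in MD cells. That made it at least 11.9-fold lower than the pooled control-cell libraries on LS+ACEi, which ranged from 1.07 to 6.34 CPM. Itga8 did not pass there (edgeR adjusted p = 0.150) but passed in the averaged fit (edgeR adjusted p = 0.0364). Both genes were much higher in marker-rich control cells, at 14.4 to 22.9 CPM for Itga9 and 5.18 to 43.4 CPM for Itga8. In marker-poor ones they lay at 1.47 to 4.76 CPM and 1.07 to 1.89 CPM. The fibronectin receptor subunit Itga5 showed the same pattern, with 1.02 and 0.976 CPM in MD cells on control diet and 1.72 and 0.983 CPM on LS+ACEi. Its control-cell values were 9.24, 6.47, 6.46 and 1.24 CPM on control diet and 2.38, 7.56, 1.47 and 7.41 CPM on LS+ACEi, so only the marker-poor libraries came near MD cells. Its averaged fold change of -2.16 (SE 0.59, edgeR adjusted p = 0.0224) was -0.43 (edgeR adjusted p = 0.850) against marker-poor libraries. It also lost the call without MD replicate 1 or 2 on control diet or MD replicate 2 on LS+ACEi.

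Low levels made up the rest of the alpha subunits that fell. Itga2, Itga2b and Itga7 reached 1.15 CPM at most in an MD library and 3.17 CPM at most in control cells, with averaged log2 fold changes of -2.44, -2.64 and -2.51. The value of Itga2b was -4.65 without MD replicate 2 on control diet, and that of Itga7 was -4.73 without the same library and -5.17 without MD replicate 1 on LS+ACEi. Each of these fits left an MD group with 0 counts of the gene, so these values depend on the prior count. Itga2 lost its call without MD replicate 2 of either diet, and Itga7 without MD replicate 2 on LS+ACEi or replicate 1 on control diet. Markers of platelets, the best known site of Itga2b, summed to at most 0.819 CPM in any library, over the 2 of 6 that the table held. Itgam, an integrin of myeloid cells, was at 0 in 3 of 4 MD libraries and at 0.205 CPM in the other. Control cells held 0.951 to 3.17 CPM of it when marker-rich and at most 0.419 CPM when marker-poor. The calls of Itga8 and Itgam were lost on leaving out any of 8 and 9 single libraries. Itgal, Itgax and Itga10 did not pass. Leukocyte markers summed to 1.47 to 3.69 CPM in MD cells, 3.77 to 8.21 CPM in marker-poor and 30.1 to 99.3 CPM in marker-rich control cells.

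RefSeq promoters (GRCm38.p6) were matched for 34 of the 49 members, and the 250 bases before each start were searched on both strands for 4 motifs. Of several promoters of a gene, the one nearest the annotated start was used for members and the first listed one for the background. The Sp1-type box GGGCGG was in 16 of the 34 against 32.9% of 27025 promoters, GGAATG, the core of TEAD sites, in 3 against 12.6%, and the AP-1-type motif TGANTCA in 2 against 6.87%. The CArG box, the site of serum response factor, was in 2 (Fermt2 and Vcl) against 1.40%. Member promoters were also richer in G and C, with a median of 63.4% against 52%, and GGGCGG is itself made of these bases. GGGCGG was in 1 of the 3 matched members that rose and 10 of the 17 that fell. The windows of the 3 alpha subunits that rose are printed with that of Itga5, a fibronectin-binding alpha subunit that fell. They run 5' to 3' on the gene's strand, from chr2:79255176-79255425 (Itga4, forward), chr15:103366792-103367041 (Itga5, reverse), chr2:83724147-83724396 (Itgav, forward) and chr13:115101965-115102214 (Itga1, reverse), with motif matches on either strand in capitals.
Itga4: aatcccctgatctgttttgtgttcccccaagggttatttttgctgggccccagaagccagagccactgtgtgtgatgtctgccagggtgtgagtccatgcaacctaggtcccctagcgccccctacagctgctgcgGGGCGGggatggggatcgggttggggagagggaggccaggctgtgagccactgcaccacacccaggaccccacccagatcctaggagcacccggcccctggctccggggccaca
Itga5: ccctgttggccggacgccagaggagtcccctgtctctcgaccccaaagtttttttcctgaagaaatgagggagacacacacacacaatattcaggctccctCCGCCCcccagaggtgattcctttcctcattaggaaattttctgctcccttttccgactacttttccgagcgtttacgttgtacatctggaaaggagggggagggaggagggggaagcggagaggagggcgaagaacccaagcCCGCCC
Itgav: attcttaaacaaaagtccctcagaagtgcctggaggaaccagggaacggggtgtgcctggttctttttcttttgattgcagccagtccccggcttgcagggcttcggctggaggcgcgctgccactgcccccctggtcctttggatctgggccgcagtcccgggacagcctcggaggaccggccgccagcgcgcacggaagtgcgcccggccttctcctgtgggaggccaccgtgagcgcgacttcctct
Itga1: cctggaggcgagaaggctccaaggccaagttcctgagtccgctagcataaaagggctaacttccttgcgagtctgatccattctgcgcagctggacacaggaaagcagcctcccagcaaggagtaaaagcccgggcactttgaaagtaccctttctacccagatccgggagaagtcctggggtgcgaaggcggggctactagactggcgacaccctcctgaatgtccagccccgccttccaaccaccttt
The Itga4 window held 1 match and the Itga5 window 2, all to GGGCGG or its reverse complement, and the windows of Itgav and Itga1 held 0. A match is a run of letters and was not tested as a binding site.

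Of the 8 beta subunits, 5 fell (background 13.9%) and 0 rose (background 7.53%). Itgb4, the long-tailed partner of α6 in hemidesmosomes, was 1.33 and 2.36 CPM in MD cells on control diet and 2.29 and 3.44 CPM on LS+ACEi. Control cells held 6.19, 5.16, 6.46 and 6.91 CPM on control diet and 8.98, 4.88, 11.1 and 6.40 CPM on LS+ACEi. Here the marker-poor control cells were the highest, opposite to most of the members that fell, and no MD library reached a control-cell library. Over both diets the log2 fold change was -1.58 (SE 0.27, edgeR adjusted p = 0.00225), with -1.30 against marker-rich and -1.84 against marker-poor libraries.

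Itgb1, the common partner of most alpha subunits, was 49.7 and 34.7 CPM in MD cells on control diet and 49.0 and 76.8 CPM on LS+ACEi. Control cells held 146, 131, 102 and 52.7 CPM on control diet and 58.1, 99.3, 69.0 and 94.6 CPM on LS+ACEi. The populations overlapped, and the overlap lay with the marker-poor libraries. The averaged log2 fold change of -0.85 (SE 0.28, edgeR adjusted p = 0.0457) was -1.09 against marker-rich and -0.17 (edgeR adjusted p = 0.790) against marker-poor libraries. This call was lost on leaving out any of 9 single libraries, and with scaling by library totals alone. The leukocyte subunits Itgb2 and Itgb7 and the vitronectin receptor subunit Itgb3 fell from low levels, with at most 2.15 CPM in any MD library. The averaged log2 fold change of Itgb3 was -2.71, or -5.82 without MD replicate 1 on control diet. That fit left 0 counts of Itgb3 in the MD group on control diet, so its value depends on the prior count. Itgb3 lost its call without either MD replicate on LS+ACEi, Itgb7 without MD replicate 2 of either diet, and Itgb2 on leaving out any of 8 single libraries.

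The 3 beta subunits that did not pass were Itgb5, Itgb6 and Itgb8. Itgb6, an epithelial receptor subunit for latent TGF-β, was 16.0, 18.3, 19.7 and 19.5 CPM in the MD libraries. Control cells held 4.24, 6.28, 8.18 and 15.7 CPM on control diet and 17.4, 6.59, 13.8 and 8.63 CPM on LS+ACEi, the 3 values above 13 CPM being those of the marker-poor libraries. It did not pass (log2 0.87, SE 0.32, edgeR adjusted p = 0.0717). It passed against marker-rich libraries (1.41, edgeR adjusted p = 0.000258) and not against marker-poor ones (0.21, edgeR adjusted p = 0.729). Itgb8 gave 0.41 (SE 0.40, edgeR adjusted p = 0.506) and Itgb5 gave -0.71 (SE 0.30, edgeR adjusted p = 0.114). Against marker-rich libraries both passed, Itgb8 at 0.88 (edgeR adjusted p = 0.00197) and Itgb5 at -0.998 (edgeR adjusted p = 0.00432), and against marker-poor ones neither did (0.77 and -0.0447).

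Divided by exon length, the levels of different subunits can be set in order. That length is the union of all annotated exons of a gene, so it can exceed that of the transcripts present. The order depends on it. In MD cells Itgav led the alpha subunits with 10.4 CPM per kilobase (SD 2.10, n = 4), ahead of Itga6 with 5.67 (SD 0.28), Itga1 with 3.89 (SD 0.96), Itga4 with 3.78 (SD 1.48) and Itga3 with 2.10 (SD 0.72). Itgav and Itga6 did not overlap between libraries, whereas Itga1 and Itga4 differed by less than their SDs. The other 12 alpha subunits had means of at most 0.238 CPM per kilobase. Over the 8 control-cell libraries Itga3 had the highest mean, 8.67 CPM per kilobase, before Itga6 and Itgav at 5.35 each, but in all 3 marker-poor libraries Itgav was above Itga3, by 1.14 to 1.83 times. Itgb1 and Itgb5 were the most abundant beta subunits in both populations, at 12.9 (SD 4.31) and 10.9 (SD 3.29) CPM per kilobase in MD cells and 23.1 and 17.7 in control cells, and their ranges overlapped in MD cells. These are transcript levels in libraries of 1 total-RNA kit, and they do not show which pairs form at the membrane.

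**Figure D2:**
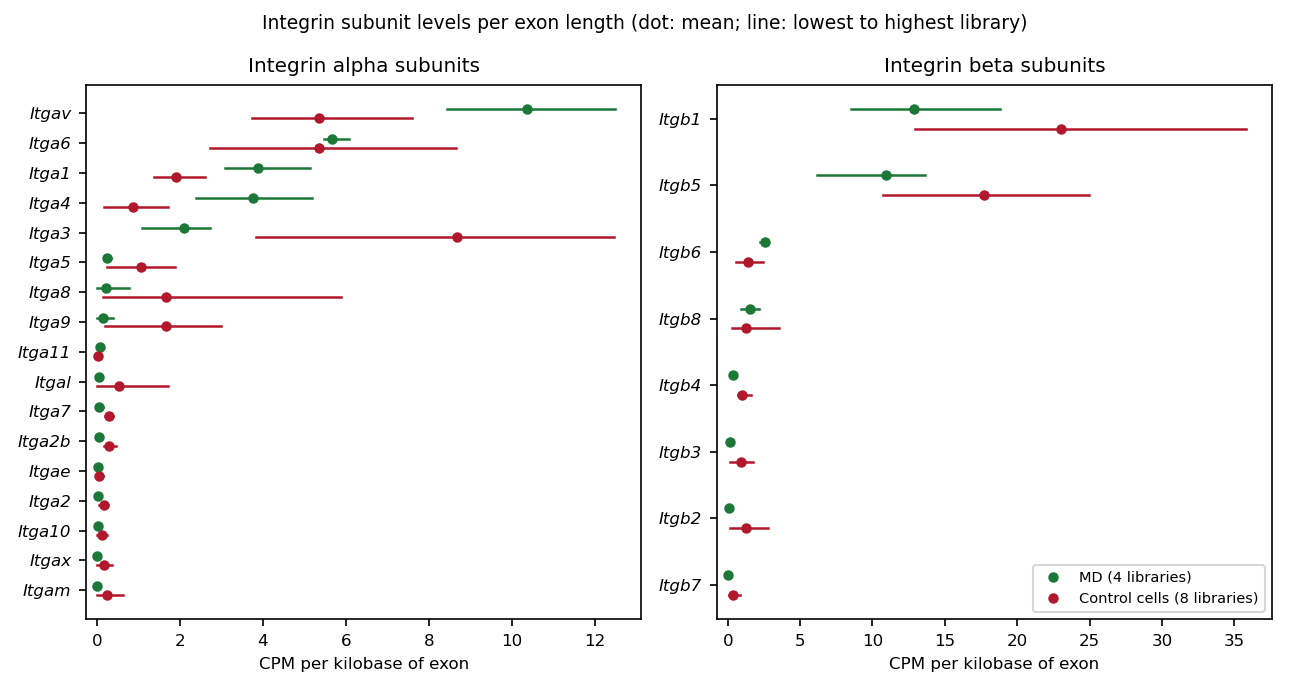
Level per exon length (x axis, CPM per kilobase) of 17 alpha and 8 beta subunits in MD cells (green, 4 libraries) and control cells (red, 8 libraries), with the mean as a dot and the lowest to highest library as a line. Itgav leads the alpha subunits in MD cells at 10.4 CPM per kilobase and Itga3 has the highest mean over the 8 control-cell libraries at 8.67, which does not hold in the 3 marker-poor libraries, where Itgav is above Itga3.

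Ratios between 2 genes of the same library do not depend on the scaling of libraries. Per exon length, Itga4 stood at 6.86 to 26.2 times Itga5 in MD libraries and 0.421 to 1.30 times in control cells. The ratio of Itgav to Itga3 was 3.10 to 8.03 in MD and 0.333 to 1.83 in control-cell libraries, and that of Itga1 to Itga3 was 1.16 to 2.86 and 0.144 to 0.681. These 3 ratios each set a member that rose over one that fell, so their separation follows from those changes and is given as a description. The ratio of Itgb5 to Itgb1, of which 1 fell and 1 did not pass, was 0.607 to 1.14 and 0.640 to 1.02. In all, 14 ratios were computed. Populations also overlapped for Parvb/Parva, Itgb6/Itgb1, Itgb8/Itgb1, Tns1/Tns3, Tns2/Tns1, Fermt1/Fermt2 and Ptk2b/Ptk2, and lay apart for Itgav/Itgb1.

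The integrin activators divided between the 2 talins. Tln2, a talin best known from muscle and brain, was 57.8 and 69.3 CPM in MD cells on control diet and 45.9 and 41.1 CPM on LS+ACEi. Control cells held 13.0, 13.6, 21.6 and 35.2 CPM on control diet and 33.4, 15.9, 27.0 and 17.1 CPM on LS+ACEi. The populations did not overlap, and the marker-poor libraries (27.0 to 35.2 CPM) were the nearest to MD cells. Tln2 rose by 1.25 on the log2 scale (SE 0.28, edgeR adjusted p = 0.00810), with 1.71 against marker-rich libraries and 0.68 (edgeR adjusted p = 0.0565) against marker-poor ones, where the call was lost. On control diet alone it passed at 1.61 (SE 0.39, edgeR adjusted p = 0.0302), and leaving out any of 5 control-diet libraries ended that call.

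Tln1, the widely expressed talin, went the other way: 66.9, 51.6, 59.3 and 41.8 CPM in MD libraries. Control cells held 188, 173, 142 and 79.5 CPM on control diet and 97.7, 155, 77.8 and 142 CPM on LS+ACEi. The populations did not overlap, with marker-poor libraries again the nearest. The averaged log2 fold change of -1.26 (SE 0.27, edgeR adjusted p = 0.00698) was -0.62 (edgeR adjusted p = 0.0941) against marker-poor libraries. Exons of Tln1 overlap those of Creb3 on the opposite strand. Per exon length the ratio of Tln2 to Tln1 was 0.413 to 0.717 in MD cells and 0.0369 to 0.236 in control cells. By that measure Tln1 was the more abundant of the 2 in every library. In CPM, not divided by length, Tln2 was above Tln1 in MD replicate 2 on control diet (69.3 and 51.6 CPM).

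Kindlin-2 is encoded by Fermt2, which held 29.3, 25.5, 27.9 and 25.9 CPM in MD libraries. Control cells held 72.5, 71.3, 50.8 and 36.3 CPM on control diet and 40.0, 56.4, 45.3 and 54.0 CPM on LS+ACEi. The populations did not overlap, and Fermt2 fell by 0.97 on the log2 scale (SE 0.20, edgeR adjusted p = 0.00652). The call was lost against marker-poor libraries (-0.54, edgeR adjusted p = 0.129). Epithelial Fermt1 and leukocyte Fermt3 did not pass, with at most 3.09 and 1.47 CPM in MD libraries.

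**Figure D3:**
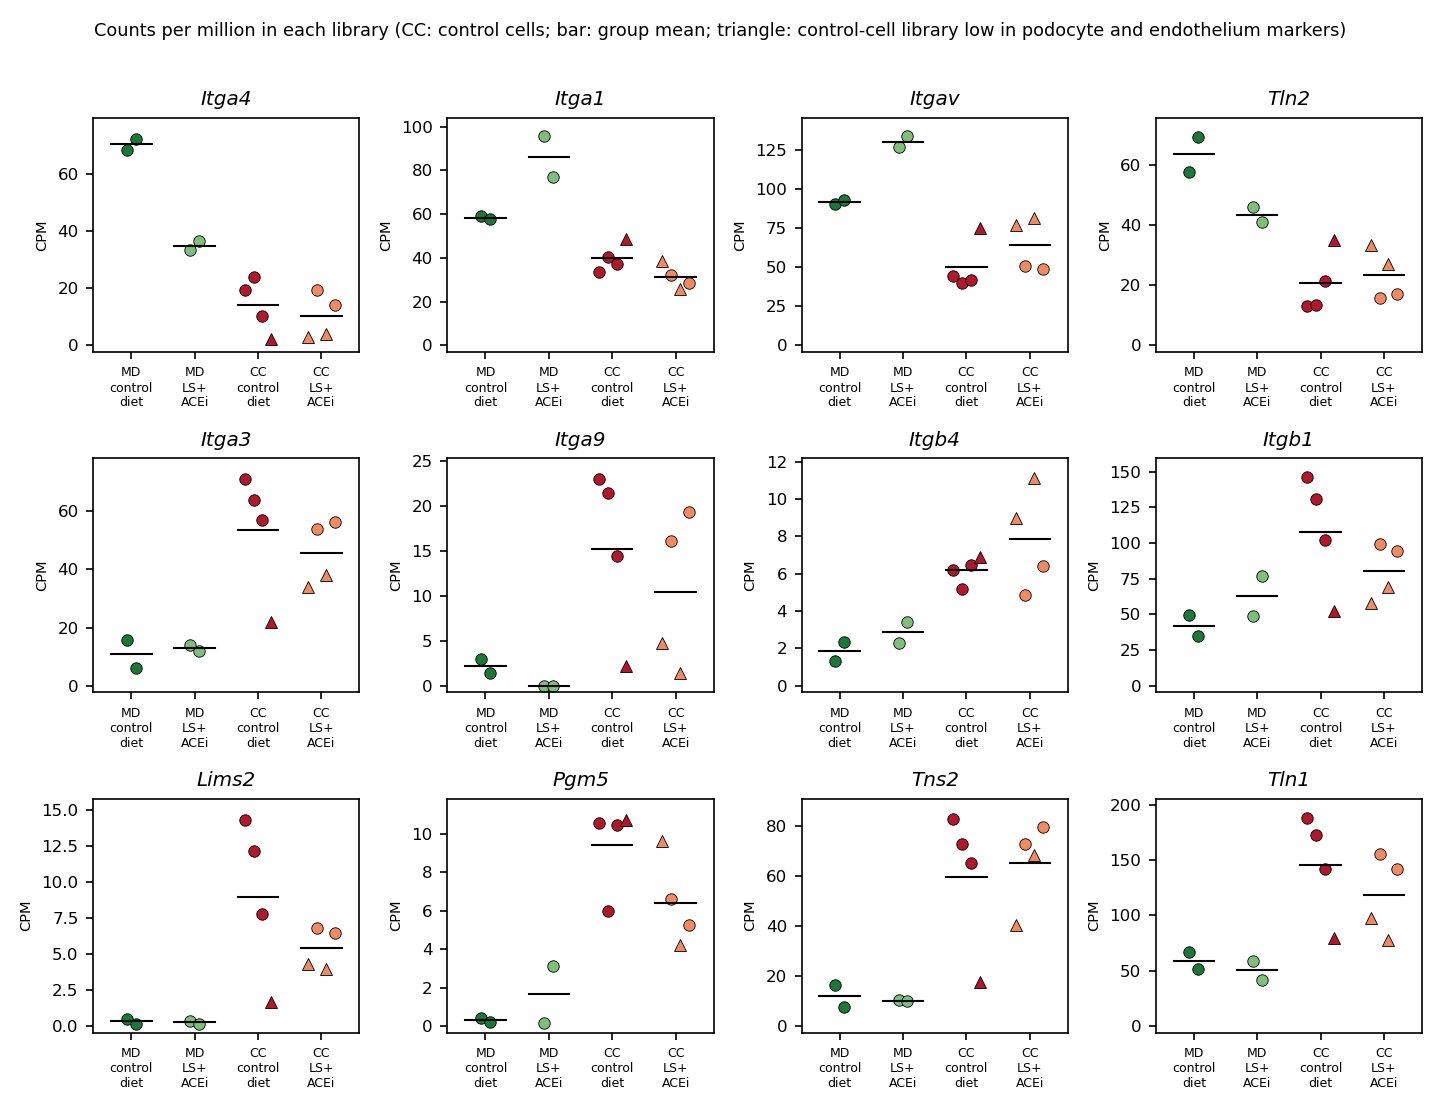
CPM (y axes) in each library of 12 members by population and diet, with the group mean as a bar and marker-poor control-cell libraries as triangles. Itga4, Itga1, Itgav and Tln2 lie higher in all 4 MD libraries and Itga3, Itgb4, Lims2, Pgm5, Tns2 and Tln1 lower, while Itgb1 and Itga9 overlap with marker-poor control cells.

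**Figure D4:**
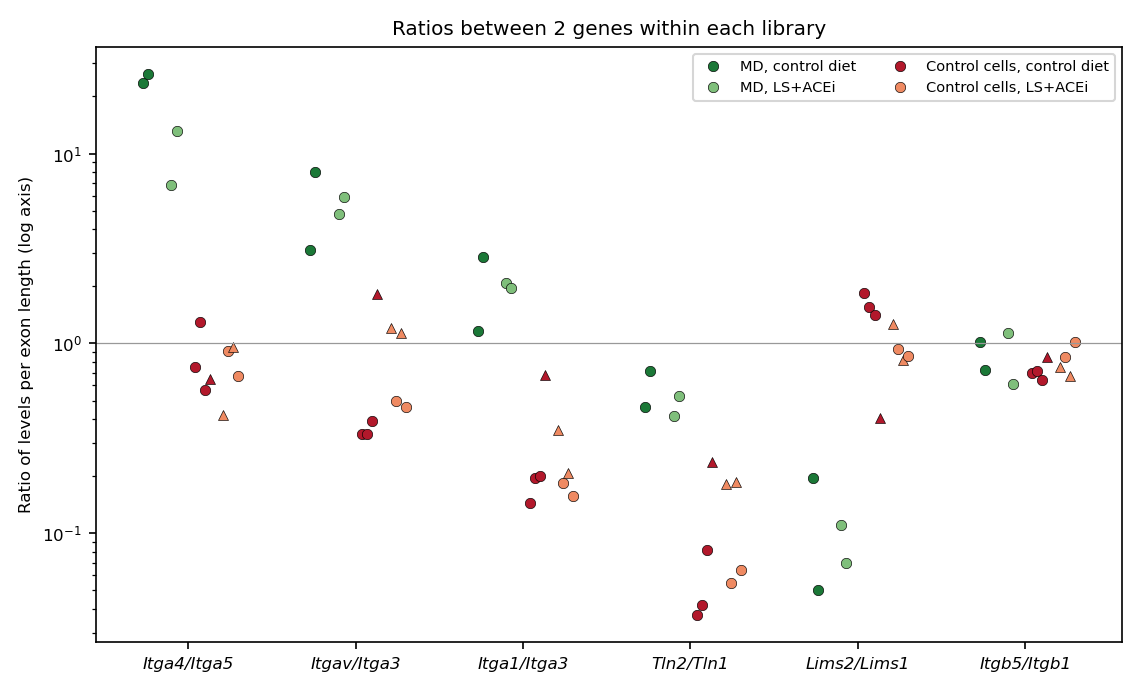
Ratio of 2 members within each library, per exon length, on a log axis; green is MD, red and orange are control cells, and triangles are marker-poor libraries. The first 5 ratios lie apart in MD and control-cell libraries, a description since the 2 members of each had different fold changes, while Itgb5 to Itgb1 overlaps at 0.607 to 1.14 in MD cells.

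ILK, PINCH and parvin form a complex that links the beta tail to actin and holds 1 PINCH and 1 parvin protein at a time. Lims2, which encodes PINCH2, had the smallest adjusted p of all members. MD libraries held 0.512, 0.163, 0.382 and 0.164 CPM, against 14.3, 12.2, 7.80 and 1.65 CPM in control cells on control diet and 4.30, 6.83, 3.98 and 6.50 CPM on LS+ACEi. No library overlapped, although the level in control cells was higher in all marker-rich than in all marker-poor libraries. Lims2 gave an averaged log2 fold change of -4.50 (SE 0.66, edgeR adjusted p = 0.000806), with -4.81 against marker-rich and -3.09 (SE 0.74, edgeR adjusted p = 0.0159) against marker-poor libraries. The other PINCH gene, Lims1, was 4.20, 5.20, 5.55 and 3.77 CPM in MD libraries. It was 12.4, 12.6, 8.84 and 6.50 CPM in control cells on control diet and 5.45, 11.7, 7.76 and 12.1 CPM on LS+ACEi, a log2 change of -1.04 (SE 0.28, edgeR adjusted p = 0.0197). Its call was lost against marker-poor libraries (-0.48, edgeR adjusted p = 0.533) and without MD replicate 1 or 2 on control diet or replicate 2 on LS+ACEi. The ratio of Lims2 to Lims1 per exon length was 0.0499 to 0.195 in MD cells and 0.406 to 1.85 in control cells.

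Parvb, the β-parvin gene, also fell, with 0.512, 0.0813, 0 and 0.491 CPM in MD libraries against 9.13, 8.82, 5.80 and 0.619 CPM in control cells on control diet and 4.91, 6.10, 2.94 and 10.1 CPM on LS+ACEi. The lowest control-cell library, just above the MD range, was marker-poor. MD replicate 1 on LS+ACEi held 0 counts, so without replicate 2 the fitted value depends on the prior count. Over both diets the log2 fold change was -4.42 (SE 0.84, edgeR adjusted p = 0.00386). It was -6.55 without MD replicate 2 on LS+ACEi and -5.23 without MD replicate 1 on control diet, and against marker-poor libraries it was -2.48 (edgeR adjusted p = 0.150), where the call was lost. The α-parvin gene Parva, at 24.6 to 31.6 CPM in MD and 28.0 to 50.6 CPM in control cells, did not pass (-0.48, SE 0.19, edgeR adjusted p = 0.0885). Ilk did not pass either (-0.49, SE 0.18, edgeR adjusted p = 0.0681). Against marker-rich libraries both passed, Parva at -0.65 (edgeR adjusted p = 0.00620) and Ilk at -0.60 (edgeR adjusted p = 0.0169), while against marker-poor ones they were -0.15 and -0.21. Exons of Ilk overlap those of Rrp8 and Taf10 on the opposite strand, and the larger of the 2 overlaps takes 2106 of its 2744 exon bases.

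Of the 5 kinases and scaffolds, 1 passed, against a background of 21.4%. Paxillin (Pxn), a scaffold protein, was 12.4, 18.5, 20.5 and 21.3 CPM in MD libraries. Control cells held 27.2, 24.8, 31.7 and 21.0 CPM on control diet and 27.0, 27.6, 32.7 and 30.0 CPM on LS+ACEi, so the ranges met at 1 library of each. Pxn fell by 0.62 on the log2 scale (SE 0.16, edgeR adjusted p = 0.0181). That call was lost without MD replicate 1 on control diet or either MD replicate on LS+ACEi, and against marker-poor libraries (-0.49, edgeR adjusted p = 0.276). Ptk2, the gene of focal adhesion kinase, was 27.7, 40.4, 32.9 and 38.3 CPM in MD libraries and 20.7 to 47.7 CPM in control cells. Its log2 difference was 0.09 (SE 0.22, edgeR adjusted p = 0.821) and its sign turned in 4 of the other settings. The related kinase Ptk2b (-0.23, edgeR adjusted p = 0.601), the scaffold Bcar1 (-0.29, edgeR adjusted p = 0.288) and the paxillin relative Tgfb1i1 (-1.35, edgeR adjusted p = 0.0871) did not pass.

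Of the 7 tested actin linkers and LIM proteins, 4 fell, where the background for lower was 13.9%. Pgm5, a phosphoglucomutase relative found at adhesions and muscle attachment sites, was 0.410 and 0.244 CPM in MD cells on control diet and 0.191 and 3.11 CPM on LS+ACEi. Control cells held 10.5, 6.00, 10.5 and 10.7 CPM on control diet and 9.59, 6.59, 4.19 and 5.28 CPM on LS+ACEi. MD libraries lay below all control-cell libraries, and marker-poor and marker-rich control cells covered about the same range. Pgm5 gave an averaged log2 fold change of -3.37 (SE 0.50, edgeR adjusted p = 0.000918), with -3.24 against marker-rich and -3.53 against marker-poor libraries. It was -4.91 without MD replicate 2 on LS+ACEi, the library at 3.11 CPM.

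Tns2 encodes tensin 2, which joins integrin tails to actin and is known from podocytes. MD libraries held 16.3, 7.72, 10.3 and 9.99 CPM. Control cells held 82.8, 72.8, 65.2 and 17.6 CPM on control diet and 40.4, 72.7, 68.3 and 79.5 CPM on LS+ACEi. The lowest control-cell library, replicate 4 on control diet, was just above the highest MD library. Over both diets Tns2 gave a log2 fold change of -2.50 (SE 0.40, edgeR adjusted p = 0.00148), with -2.75 against marker-rich and -1.49 (SE 0.28, edgeR adjusted p = 0.00288) against marker-poor libraries. Tns3 was 64.9, 54.9, 52.4 and 58.5 CPM in MD libraries, and 179, 200.4, 153 and 69.2 CPM in control cells on control diet with 80.0, 137, 64.6 and 140.1 CPM on LS+ACEi. It fell by 1.13 on the log2 scale (SE 0.30, edgeR adjusted p = 0.0193), but its marker-poor libraries (64.6 to 80.0 CPM) met MD cells (52.4 to 64.9 CPM) and gave -0.31 (edgeR adjusted p = 0.473). The call of Tns3 was also lost without either MD replicate on LS+ACEi or MD replicate 2 on control diet. Tns1, the most abundant member by CPM, was 209 to 276 CPM in MD and 178 to 519 CPM in control cells and did not pass (-0.16, SE 0.21, edgeR adjusted p = 0.648). Its direction was positive under scaling by library totals (0.07).

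The LIM protein Zyx was 4.10, 1.79, 4.40 and 3.44 CPM in MD libraries. Control cells held 11.7, 9.57, 13.6 and 5.05 CPM on control diet and 7.67, 14.4, 8.81 and 16.0 CPM on LS+ACEi. The populations did not overlap (-1.68, SE 0.34, edgeR adjusted p = 0.00567), and Zyx lost the call against marker-poor libraries (-0.94, edgeR adjusted p = 0.180). Its relative Lpp did not pass (0.17, edgeR adjusted p = 0.431). Vinculin (Vcl), the classic actin linker, was 19.2 to 26.0 CPM in MD and 21.9 to 62.6 CPM in control cells (-0.66, SE 0.25, edgeR adjusted p = 0.0809), and 2090 of its exon bases overlap Ap3m1 on the opposite strand. It passed against marker-rich libraries (-0.75, edgeR adjusted p = 0.00747) and was -0.19 against marker-poor ones. Its promoter window, chr14:20929148-20929397 on the forward strand, is printed because it held matches to 3 of the 4 motifs. It had 1 CArG box, 1 GGAATG and 4 GGGCGG, of which 2 overlap.
Vcl: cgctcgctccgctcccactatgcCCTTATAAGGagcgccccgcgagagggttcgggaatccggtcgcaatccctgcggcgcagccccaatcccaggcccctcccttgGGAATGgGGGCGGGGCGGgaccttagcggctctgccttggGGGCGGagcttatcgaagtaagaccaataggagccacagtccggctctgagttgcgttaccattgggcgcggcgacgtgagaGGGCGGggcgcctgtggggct
The other CArG box lay in the window of Fermt2, which fell, so the motif was found in 1 member that passed and 1 that did not.

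**Figure D5:**
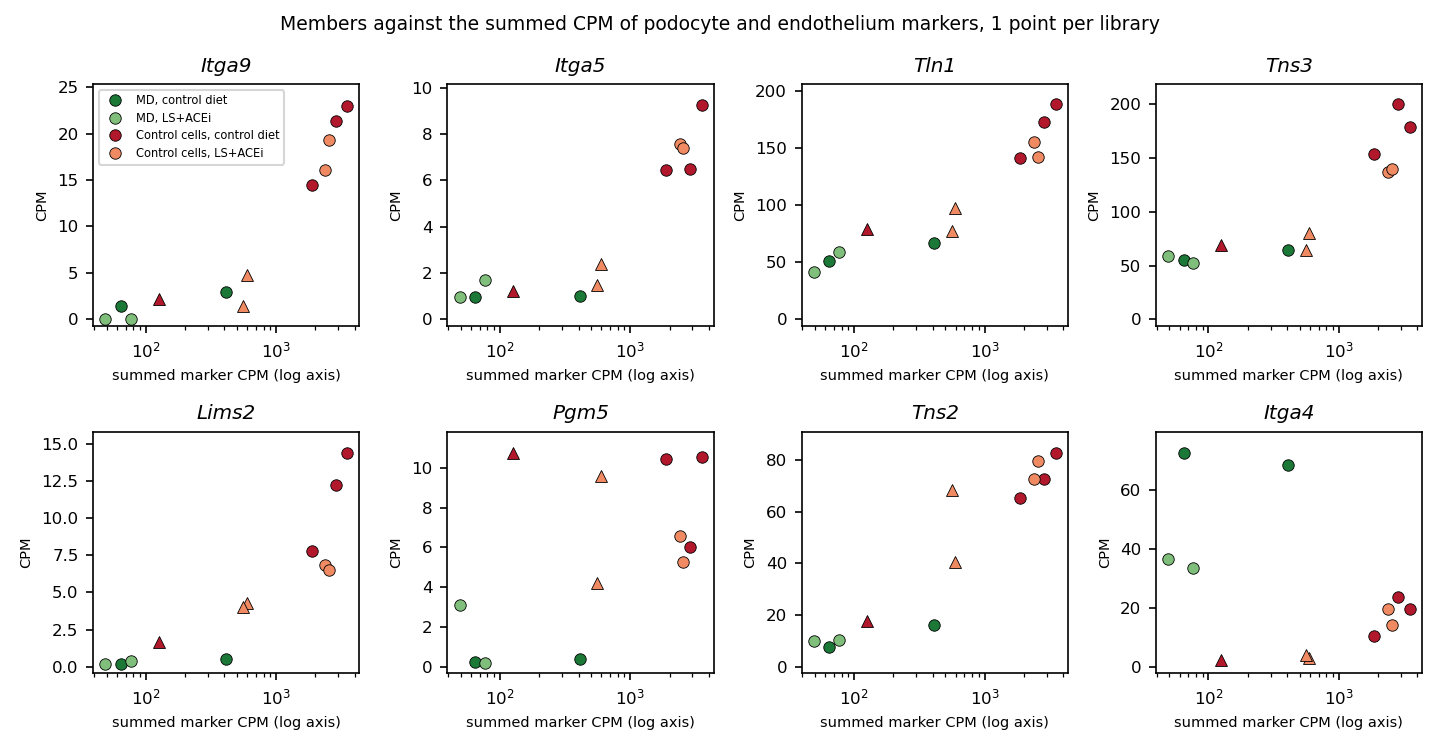
CPM (y axes) of 8 members against the summed CPM of podocyte and endothelium markers (x axes, log scale), 1 point per library, coloured by population and diet, with marker-poor control-cell libraries as triangles. For Itga9, Itga5, Tln1 and Tns3 the marker-poor control-cell libraries lie near the MD libraries, while for Pgm5, Lims2 and Itga4 they lie outside the range of the MD libraries. For Tns2 the lowest marker-poor library, at 17.6 CPM, is close to the highest MD library at 16.3 CPM.

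All marker-rich libraries were above all marker-poor ones for 23 of the 45 tested members, where the background was 12.9% of genes, and below them for 4 (Itgav, Itgb4, Itgb6 and Tln2), where it was 6.74%. Of the 23 members that fell, 15 had the first order, 1 the second, and 7 neither, Pgm5 and Tns2 among them. The libraries were divided by markers of 2 cell types, so these counts describe the division and were not tested.

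Other genes of the pathway were taken from 2 lists. Fits against only marker-rich or only marker-poor libraries are not given for them. Of 53 tested focal adhesion genes outside the members, 20 passed in the averaged comparison (background 21.4%), 1 higher (background 7.53%) and 19 lower (background 13.9%), with a median log2 fold change of -0.48 against -0.06 for all genes. The higher one was Pdlim5, a PDZ and LIM protein of actin fibres (0.71, edgeR adjusted p = 0.00689). The largest fall was that of Pak1, a kinase downstream of Rac (-2.82, edgeR adjusted p = 0.0296). Cav1, the caveolar coat protein (-2.64, edgeR adjusted p = 0.00859), and Palld, an actin bundler (-2.46, edgeR adjusted p = 0.00663), followed. Pak1 ranged from 0.516 to 19.3 CPM in control cells on control diet. Its lowest library there was below every MD library (0.956 to 2.78 CPM). Cav1 and Palld did not overlap between populations, but Palld ranged from 4.54 to 25.1 CPM in control cells on control diet. On control diet 3 passed, all lower (Lasp1, Vasp and Kank1), where the background was 6.57%, and on LS+ACEi 5 passed, with Pdlim5 higher and 4 lower, where it was 7.28%.

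Of 28 tested integrin ligands, 18 passed in the averaged comparison (background 21.4%), 3 higher (background 7.53%) and 15 lower (background 13.9%), with a median log2 fold change of -1.84. The 3 that rose were basement membrane genes: the type IV collagens Col4a3 (0.96, SE 0.22, edgeR adjusted p = 0.00966) and Col4a4 (0.77, SE 0.16, edgeR adjusted p = 0.00656) and the laminin chain Lamb1 (0.49, SE 0.14, edgeR adjusted p = 0.0240). Npnt, which encodes nephronectin, the ligand of α8β1, fell from 194 ± 13.5 CPM (SD, n = 4) to 16.9 ± 8.20 CPM (SD, n = 2) on control diet. On LS+ACEi it fell from 89.1 ± 65.4 CPM (SD, n = 4) to 4.94 ± 1.58 CPM (SD, n = 2). Npnt ranged from 16.4 to 152 CPM in control cells on LS+ACEi. Its averaged log2 fold change was -3.84 (SE 0.55, edgeR adjusted p = 0.000730), and that of fibronectin (Fn1) was -3.16 (SE 0.44, edgeR adjusted p = 0.000630). Icam2, an endothelial ligand of leukocyte integrins, had 8 counts in the MD libraries on control diet and 0 on LS+ACEi. On single diets 10 ligands passed each time, all lower on control diet (background 6.57%), and 3 higher with 7 lower on LS+ACEi (background 7.28%).

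The second question was whether 14 days of LS+ACEi changed these genes. In MD cells 0 of the 45 members passed edgeR at an adjusted p of 0.05, as did 0.0% of all genes. At an unadjusted p under 0.05 there were 4 members, where the background was 11.3%. With 2 libraries a side, 14 members did not overlap between diets, a share (14 of 45) below the background of 40.6%. DESeq2 and limma voom also called 0 members. The 4 smallest p-values belonged to Pgm5, Itga9, Itga8 and Itga1. Pgm5 rested on 1 library: its log2 change of 2.36 (SE 0.88, edgeR adjusted p = 0.363) was -0.76 without MD replicate 2 on LS+ACEi and 3.16 without replicate 1. Itga9 and Itga8 went from 47 and 62 counts to 0 counts, at least 8.05-fold and 10.6-fold lower, without passing (edgeR adjusted p = 0.403 and 0.434). For Itga8 most of the control-diet signal was in 1 library, at 5.74 CPM against 0.488 CPM, and that library also held the most podocyte (197 CPM) and endothelium (213 CPM) signal of the MD libraries. Itga1 was 0.56 higher on the log2 scale (SE 0.26, edgeR adjusted p = 0.442), with both LS+ACEi libraries above both control-diet libraries.

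Itga4 and Itgb8 had the clearest separation between diets in MD cells among members above 5 CPM, and both were picked out after their values were seen. Itga4 was 68.6 and 72.5 CPM on control diet and 33.5 and 36.5 CPM on LS+ACEi, a log2 difference of -1.01 (SE 0.90, edgeR adjusted p = 0.702). In a fit of the 4 MD libraries alone it was -0.99 (SE 0.20, edgeR adjusted p = 0.0399). That fit tested 30 members and called Itga4 as 1 of 105 genes, where the background was 0.927%. Itgb8 was 10.4 and 11.3 CPM on control diet and 23.5 and 24.1 CPM on LS+ACEi (1.13, SE 0.67, edgeR adjusted p = 0.555), and 1.15 (SE 0.26, edgeR adjusted p = 0.0711) in the fit of MD libraries alone. The 12-library fit also takes in the spread of the control cells, which ranged from 2.27 to 23.8 CPM for Itga4 and from 2.89 to 38.8 CPM for Itgb8.

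In control cells 0 of 45 members passed between diets, against 0.00705% of genes, or 1 gene, and 3 members had an unadjusted p under 0.05, against 6.44%. DESeq2 and limma voom called 0 members here too. Itgb8 was 10.5, 8.63, 7.41 and 2.89 CPM on control diet and 22.7, 10.2, 38.8 and 7.72 CPM on LS+ACEi (1.42, SE 0.48, edgeR adjusted p = 0.646). The high values were those of the 2 marker-poor LS+ACEi libraries. Within marker-rich libraries the log2 change was -0.004. The marker-poor ones held 2.89 CPM in the 1 control-diet library and 22.7 and 38.8 CPM in the 2 on LS+ACEi, which gives no replicate check on control diet. Itga8 was 22.2, 43.4, 16.7 and 1.13 CPM on control diet and 1.07, 6.34, 1.89 and 5.18 CPM on LS+ACEi (-2.57, SE 0.94, edgeR adjusted p = 0.688). Within marker-rich libraries it was -2.27 (SE 0.70). Tns1 (0.61, edgeR adjusted p = 0.696) and Itga1 (-0.35, edgeR adjusted p = 0.869) followed. Diets did not overlap in control cells for 1 member, Itgb3 (0.722 to 4.50 CPM and 4.88 to 10.5 CPM), where the background was 4.18%.

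The difference between the 2 diet effects was tested as an interaction. It passed for 0 of 45 members and 0.0% of genes, with 2 members at an unadjusted p under 0.05, where the background was 7.02%. The smallest p-values were those of Pgm5 (2.897, edgeR adjusted p = 0.634, and -0.24 without MD replicate 2 on LS+ACEi), Itga1 (0.91, SE 0.32, edgeR adjusted p = 0.643), Itga9 and Itgb1 (1.005, SE 0.54, edgeR adjusted p = 0.752). Itga1 was higher on LS+ACEi by 0.56 in MD cells and lower by 0.35 in control cells on the log2 scale, a difference that did not pass. In simulated data the fit recovered 29.5% of 4-fold changes between diets in MD cells, 59% in control cells and 7% for the interaction, so changes of that size could be missed.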

How the data were processed

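For 12 libraries the authors deposited estimated counts (expected counts, since 16.1% of values were not whole), made by the authors with STAR 2.61 and Partek on mm10, per the submitters' processing notes. Counting tool and use of strand are not given in the sources used here, so reads of overlapping genes on opposite strands cannot be assigned. Table ends minus 1 base equalled those of GENCODE M21 (GRCm38) for 23351 of 23378 symbols, including all 49 members, and that annotation gave coordinates and exon lengths. Groups came from the labels, and 0 columns lacked a sample.

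Counts were rounded and genes kept with filterByExpr (count minimum 10, total minimum 15), which left 14180. edgeR 4.0.16 in R 4.3.3 fitted all 12 libraries with 1 coefficient per group, TMM scaling and quasi-likelihood tests, adjusted over all genes by Benjamini-Hochberg at 0.05. CPM is relative to the TMM-scaled total, and SE is the log2 fold change divided by the root of the F statistic. A group with 0 counts was set to a floor of 3 counts, which covers counting error only. Members and lists were chosen with earlier results of these data known. Members that passed with a mean of at least 5 CPM, the most abundant member of each role and, where none passed, the 4 smallest p-values were named with full values, with 3 genes in each direction for the other lists. The fit was tested on simulated counts of 13488 to 13623 genes with 200 changed 4-fold.

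The labels do not say what the numbers shared between titles or descriptions mark, so they were not used to pair libraries in the main fit. Each MD library shares its description number (8833, 8834, 8852 or 2848) with 1 control-cell library on the same diet. P-values of the main fit leave out any such pairing. Alternatives were DESeq2 1.42.0 (size factors and Wald test), limma 3.58.1 voom with sample weights, library totals, no filter, a mean of 5 CPM, a fit of the compared groups alone, a table without rRNA-like and mitochondrial genes, a 0.01 threshold, blocks for label numbers and each library left out in turn. The marker-rich and marker-poor fits were added after the data were seen.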

Additional observations from a re-analysis of the deposited data

Results flagged for a closer look

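Among 90 sets of 4 control-cell libraries checked for 1 library far from the other 3, 4 stood out, where chance gives about 4.5. All were on control diet. Itgav was 75.2 CPM in replicate 4 and 40.1 to 44.7 CPM in the others. Tns2 was 17.6 CPM in replicate 4 and 65.2 to 82.8 CPM in the others. Itgb3 was 0.722 CPM in replicate 4 and 3.90 to 4.50 CPM in the others. Pgm5 was 6.00 CPM in replicate 2 and 10.5 to 10.7 CPM in the others. Replicate 4 held 62.2 CPM of podocyte and 63.3 CPM of endothelium markers, and the other 3 held 816 to 1630 CPM and 1057 to 1890 CPM; the part of these cells in the 3 values was not tested.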

How the results depend on the processing

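Numbers of members called, against 9 on control diet, 6 on LS+ACEi and 27 averaged, moved with these settings; the cause was not tested. The share of all genes called under the same setting follows each in brackets. On control diet (6.57%) they were 19 with the DESeq2 Wald test (14.1%), 17 with limma voom (13.6%), 2 with only the groups compared (3.54%), 2 at a threshold of 0.01 (1.69%), 29 with marker-rich (22.7%) and 3 with marker-poor (3.11%) control cells. On LS+ACEi (7.28%) they were 16 with the Wald test (13.6%), 3 with voom (3.58%), 1 at 0.01 (1.76%) and 22 with marker-rich control cells (17.4%). Averaged (21.4%), they were 17 of 29 tested with a mean of at least 5 CPM (28%), 14 at 0.01 (9.19%) and 8 with marker-poor control cells (7.36%). Between diets, against 0, there was 1 in MD cells with only the groups compared (0.927%) and 1 in control cells with marker-poor libraries (1.39%), where 1 library stood for control diet. With the replicate block for title numbers the counts were 2 (2.67%), 1 (2.78%) and 16 (13.4%), and with that for description numbers 22 (16.1%) and 23 (15.7%) on the single diets. Deviations from group means correlated at -0.377 to 0.278 between libraries with the same title number. For the same description number they correlated at -0.0371 to 0.227. All description-number pairs include an MD library, and in a group of 2 libraries the 2 deviations mirror each other. Such correlations cannot decide whether a description number marks 1 mouse, which is not given in the sources used here. Leaving out single libraries gave 0 to 23 on control diet (0.755% to 17.7% of genes), 1 to 13 on LS+ACEi (1.25% to 13.4%) and 16 to 35 averaged, with 10.4% to 28.2% of genes (16 without MD replicate 2 on LS+ACEi, 35 without control-cell replicate 4 on control diet).

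Signs turned in values that had not passed. Ptk2 averaged was -0.0762 with the title-number block, -0.0841 with the description-number block, -0.0536 without MD replicate 2 on control diet and -0.11 with marker-rich control cells. Tns1 averaged was 0.0662 with library totals, 0.0712 with the title-number block, 0.0509 with the description-number block and 0.12 with marker-rich control cells. The diet change of Pgm5 in MD cells was -0.76, and its difference between populations -0.24, without MD replicate 2 on LS+ACEi; without replicate 1 they were 3.16 and 3.68. In control cells the diet change of Itgb8 was -0.00399 with marker-rich and that of Itga8 0.31 with marker-poor libraries. Of 1365 values of named genes under alternatives, 1115 kept direction and side of the threshold, 234 lost the threshold, 4 gained it and 12 changed sign. The averaged calls of Lims2, Pgm5, Itga1, Tns2, Itga3 and Itgb4 were kept in every alternative that gave a value.

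Library totals alone moved the median of all genes by 0.20 in the averaged comparison and the share of calls higher in MD cells from 35.2% to 55.7% (41.0% to 62.3% on control diet, 43.2% to 65.2% on LS+ACEi). The members called were then 24, with 5 higher and 19 lower. Genes near 3 counts are limited by depth.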
